A study of Mus musculus with 12 samples.

Results

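The genes described are the 4 neuregulins (Nrg1, Nrg2, Nrg3 and Nrg4) and the 4 receptors of the ErbB family (Egfr, Erbb2, Erbb3 and Erbb4), which are 8 of the 23513 genes counted. They are a gene family listed by name, and all 8 were found in the count tables. Each was followed through 25 clusters of cortical nuclei and 11 embryos as its level, as the share of nuclei with at least 1 of its UMIs (unique molecular identifiers, each marking 1 captured RNA molecule), and as its difference between EtOH and saline embryos.

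Neuregulins are growth factors of the epidermal growth factor (EGF) family, made mostly as membrane-anchored precursors from which proteases release the EGF-like domain. They bind ErbB3 and ErbB4, whereas EGFR is bound by EGF, TGF-alpha, HB-EGF and related ligands. ErbB2 has no known ligand of its own and acts as the partner of the others, ErbB3 has little kinase activity, and the receptor pairs signal mainly through the RAS-MAPK and PI3K-AKT routes. In the embryonic forebrain, ErbB4 is known from interneurons that migrate from the ganglionic eminences into the cortex, neuregulin-1 and neuregulin-3 guide those interneurons, and EGFR is a receptor of progenitors.

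All embryos were C57BL/6J mice at embryonic day 14, according to the labels, and no engineered allele is named for either group. Saline embryos came from dams injected intraperitoneally with saline, and EtOH embryos from dams given 2.5 g/kg ethanol (25% v/v in saline) by the same route, once daily for 6 days from E8.5. Both groups thus shared the maternal injections, and the exposure was that of the dam. The saline group held 5 embryos (2 of dam S1, 3 of dam S2) and the EtOH group 6 (2 of dam E1, 4 of dam E2). Each of the 2 batches held 1 dam per treatment, S1 with E1 and S2 with E2. With 2 dams per treatment and litter-mates taken as independent samples, the p-values measure mainly the spread between embryos.

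The clusters and their names were taken from the study, and fall into radial glial cells and other early progenitors (RGC, 5 clusters), intermediate progenitor cells (IPC, 2 clusters), projection neurons (PN, 8 clusters), interneurons (Int, 7 clusters) and 3 others. Marker genes describe the split of Int from PN but do not test it, since the clusters were made from the same nuclei. The 6 interneuron markers (Gad1, Gad2, Dlx1, Dlx2, Dlx5 and Dlx6os1) summed to 3428 CPM (counts scaled to a total of 1000000 UMIs) in Cluster 5 (migrating Int) and 5962 CPM in Cluster 23 (migrating Int). In Cluster 1 (callosal PN) they summed to 102 CPM and in Cluster 9 (early PN) to 101 CPM. They do not bear on the names migrating, callosal or early, and Cluster 10 (late interneuron precursors) had 5981 CPM. Saline libraries held 44017566 to 83061737 UMIs with medians of 6325 to 9051 UMIs per nucleus, and EtOH libraries 14078316 to 38034349 UMIs with medians of 4072 to 6911, so that the totals of the groups did not overlap. The saline median of 6325 was that of embryo S2-4 and lay within the EtOH medians, whereas the other saline embryos had medians of 8365 to 9051. Of all nuclei, 314 barcodes occurred in more than 1 embryo, with 1 to 18 shared by a pair of embryos. Of the 362 pairs of nuclei with the same barcode, 19.1% lay in the same cluster, where the cluster sizes give 5.98%, and results were not recomputed without them. Levels are CPM of the counts summed per embryo and cluster, with embryos of fewer than 10 nuclei left out, and errors are SDs between embryos. A count of 3 UMIs in a whole library corresponds to 0.0361 to 0.213 CPM, and lower levels were not resolved in single libraries. A cluster of 1 embryo holds only part of the UMIs of its library, so the same count there corresponds to a higher CPM.

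The members differed widely in abundance. Over all nuclei, Nrg1 gave 2001624 UMIs, Nrg3 1378335, Erbb4 1265425, Nrg2 27868, Egfr 4080, Nrg4 769, Erbb2 677 and Erbb3 77. Nuclear RNA includes unspliced transcripts, and Nrg1, Nrg3 and Erbb4 are genes of over a megabase, so levels were compared between genes only per kb of gene body. On that scale, the order over all nuclei was Nrg1 (4.23 CPM per kb), Nrg3 (2.85), Erbb4 (2.497) and Nrg2 (0.346), followed by Erbb2 (0.0618), Egfr (0.0541), Nrg4 (0.0171) and Erbb3 (0.00808). This order rests on gene-body length and so on intronic reads having been counted, which the sources used here do not state. In the clusters where each was highest, the per-kb levels were 21.4 for Erbb4 in Cluster 5, 12.04 for Nrg1 in Cluster 9, 7.62 for Nrg3 in Cluster 22 and 1.45 for Nrg2 in Cluster 25, and at most 0.511 for the other 4 members.

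**Figure D1:**
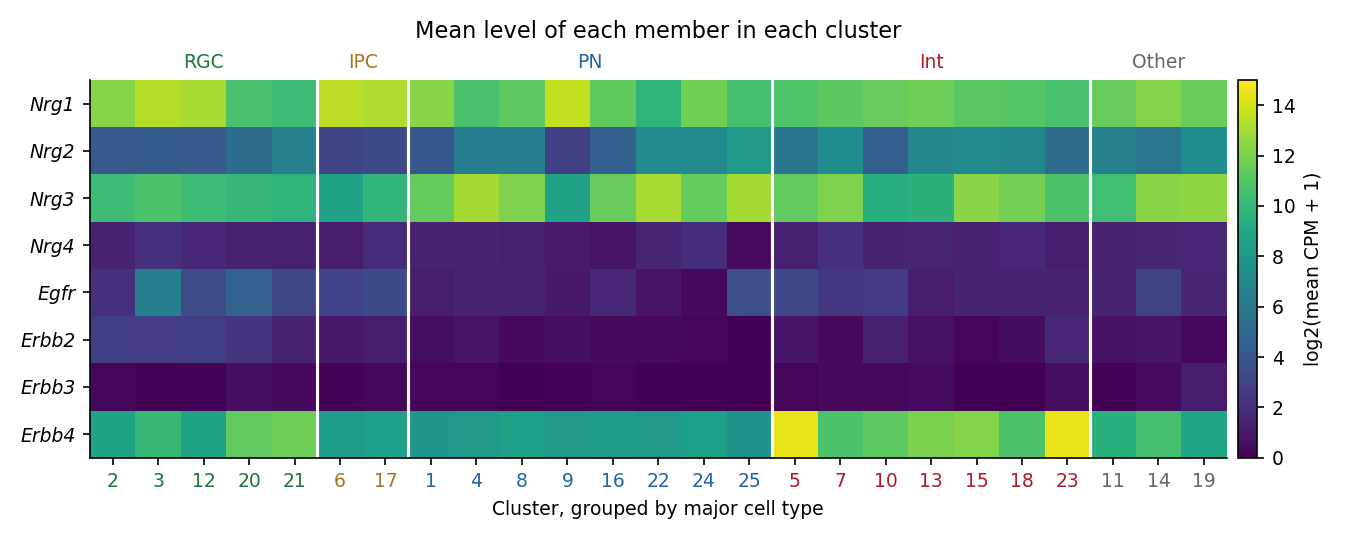
Levels of the 8 members (rows) in the 25 clusters (columns, grouped by major cell type), as the colour of log2(mean CPM + 1) over embryos. Erbb4 is highest in Clusters 5 and 23, Nrg1 in Cluster 9 and the IPC clusters, Nrg3 in Clusters 22, 4 and 25, and Egfr in Cluster 3, while Nrg4 and Erbb3 stay near 0 in every cluster.

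Nrg1 (GRCm38 chromosome 8, 31814551 to 32884029, minus strand, 1069 kb) was the most abundant ligand and was highest in young PN, both IPC clusters and 2 of the 5 RGC-class clusters. Its level was 12875 CPM ± 2331 (SD, n = 11) in Cluster 9 (early PN), 11317 ± 2265 in Cluster 6 (non-mitotic IPC), 10519 ± 2400 in Cluster 3 (interneuron precursors, grouped with RGC), 9549 ± 1400 in Cluster 17 (mitotic IPC) and 8661 ± 1282 in Cluster 12 (non-mitotic RGC). Neighbours among these 5 clusters did not differ beyond their spread, although Cluster 9 lay above Cluster 6 in 10 of 11 embryos. The step below them, to 5153 ± 823 CPM in Cluster 1 (callosal PN), was the only one of the 24 steps in the order that exceeded the larger SD, and it was seen in 11 of 11 embryos. At the other end were Cluster 21 (cortical hem RGC) at 1250 ± 494 (n = 10) and Cluster 22 (a second callosal PN cluster) at 862 ± 319 (n = 11), so the PN clusters held both the highest and the lowest level of this gene. The Int clusters covered a narrow range of 1632 to 3268 CPM. Nearly every nucleus of Cluster 9 held an Nrg1 UMI, with a median of 70 UMIs per nucleus. The gene Gm26578 lies within Nrg1 on the other strand and was counted as a gene of its own. The strand used in counting is not stated, and whether reads of either gene entered the count of the other was not tested.

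Nrg3 (chromosome 14, 38368952 to 39473088, minus strand, 1104 kb), a neuregulin that binds ErbB4, was highest in 3 of the 8 PN clusters. It reached 8417 CPM ± 918 in Cluster 22, 8048 ± 1086 in Cluster 4 (rostral subcortical PN) and 8007 ± 1307 (n = 7) in Cluster 25 (PN 3), and these 3 did not differ beyond their spread. The next level, 5932 ± 443 CPM in Cluster 19 (unknown), was lower than Cluster 25 in 7 of 7 embryos. Cluster 14 (Layer I, the Cajal-Retzius cells) had 5190 ± 525 and Cluster 15 (Int 3) 5087 ± 803. The lowest levels were 407 ± 186 CPM in Cluster 6 and 396 ± 185 CPM in Cluster 9, the same clusters in which Nrg1 was at its highest. Cluster 1 lay at 2858 CPM, below 3 of the 7 Int clusters. In all, 51.0% of Nrg3 UMIs came from PN nuclei and 26.9% from Int nuclei, and 7 of 24 steps in the order exceeded the spread, the most for any member. Nrg3os, Gm20641 and Gm20642 lie on the other strand within Nrg3.

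Nrg1 and Nrg3 have gene bodies of nearly the same length, and their balance turned over between clusters. In Cluster 9 the per-kb level was 12.04 for Nrg1 and 0.359 for Nrg3, and the CPM ratio of Nrg1 to Nrg3 was 32.5 (21.6 in saline and 50.9 in EtOH embryos). It was 27.8 in Cluster 6 (18.4 and 44.0), 10.1 in Cluster 17, 6.72 in Cluster 12 and 6.07 in Cluster 3. In Cluster 22 the balance was the opposite, with a per-kb level of 0.806 for Nrg1 and 7.62 for Nrg3, and the ratio of Nrg3 to Nrg1 was 9.76 there, 5.24 in Cluster 25 and 4.801 in Cluster 4. Across the 25 clusters, log2 levels of both genes were inversely related (Pearson r = -0.556, Spearman rho = -0.481), whereas Nrg2 followed Nrg3 (r = 0.698, rho = 0.644) and ran against Nrg1 (r = -0.75, rho = -0.628). These coefficients describe 25 clusters that share libraries and embryos.

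**Figure D2:**
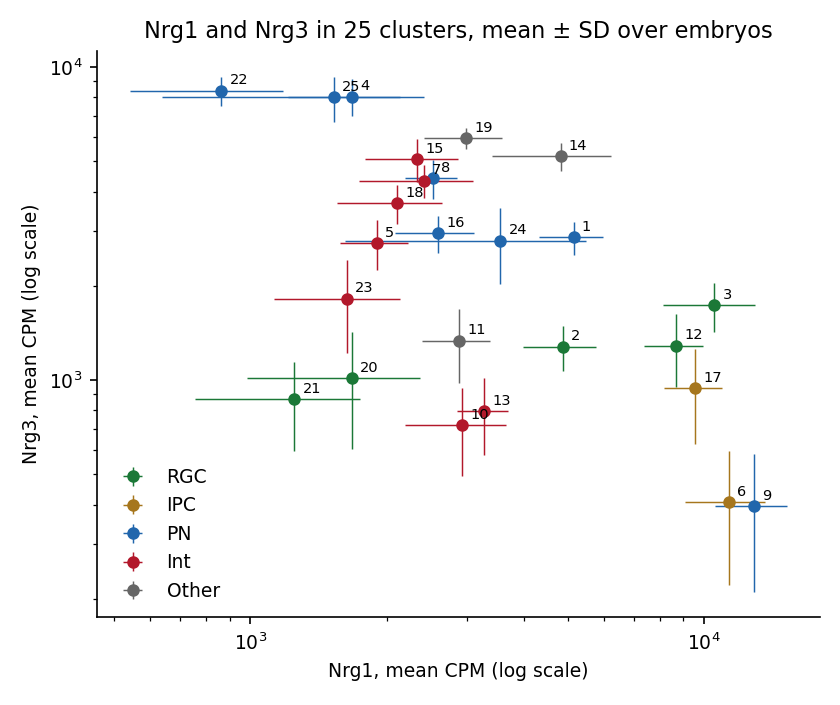
Level of Nrg1 (x axis, CPM, log scale) against level of Nrg3 (y axis, CPM, log scale) in each of the 25 clusters, as mean ± SD over embryos and coloured by major cell type. Clusters 9 and 6 lie at high Nrg1 and low Nrg3, Clusters 22, 25 and 4 at low Nrg1 and high Nrg3, and the Int clusters cover a narrow range of Nrg1.

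Nrg2, a neuregulin known from neurons, was highest in a small PN cluster and lowest in young PN and IPC, with Int clusters spread between 22.2 and 153 CPM. It reached 261 CPM ± 36.6 (n = 7) in Cluster 25, above 155 ± 26.1 in Cluster 19 in 7 of 7 embryos, followed by 153 ± 18.8 in Cluster 7 (Int 1) and 148 ± 31.5 in Cluster 22. Its lowest levels were 8.86 ± 4.20 CPM in Cluster 17, 7.90 ± 3.28 in Cluster 6 and 6.05 ± 4.40 in Cluster 9, the last resting on 109 UMIs. Int nuclei held 42.3% of Nrg2 UMIs, PN nuclei 32.6% and IPC nuclei 1.11%. Nrg4, known mainly from peripheral tissues, was at the limit of detection in all clusters, between 0.359 CPM ± 0.951 in Cluster 25, where it had 1 UMI, and 3.25 ± 1.87 in Cluster 3. None of the 24 steps in its order exceeded the spread, and Fbxo22 overlaps it on the other strand (chromosome 9, 55220222 to 55326844, minus strand, for Nrg4).

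Among the receptors, Erbb4 (chromosome 1, 68032186 to 69108059, minus strand, 1076 kb) was concentrated in Clusters 5 and 23, which the study named migrating interneurons with Erbb4 itself as the marker, so its level there is a description. It made up 23026 CPM ± 2037 (n = 11) of all UMIs in Cluster 5 and 22228 ± 3093 (n = 10) in Cluster 23, which did not differ beyond their spread. Every one of the 3809 nuclei of Cluster 5 held an Erbb4 UMI, with a median of 163 per nucleus, and this cluster, with 7.54% of all nuclei, supplied 58.4% of all Erbb4 UMIs. The drop to the next clusters, 4670 ± 839 CPM in Cluster 15 (Int 3) and 4193 ± 1043 in Cluster 13 (Int 2), was seen in 10 of 10 embryos. Then came 2 RGC-class clusters, Cluster 21 at 3302 ± 969 (n = 10) and Cluster 20 (RGC 2) at 2685 ± 1335 (n = 9). PN clusters lay between 198 and 379 CPM and the IPC clusters at 307 and 351 CPM. Together, Int nuclei supplied 83.1% of Erbb4 UMIs.

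Egfr (chromosome 11, 16752203 to 16918158, plus strand) was a gene of Cluster 3, the interneuron precursors, where its level of 84.8 CPM ± 42.8 (n = 11) stood above the 24.9 ± 15.7 (n = 9) of Cluster 20 in 8 of 9 embryos. Cluster 3, with 8.06% of the nuclei, supplied 59.2% of Egfr UMIs. Even there, 449 of 4074 nuclei (11.02%) held an Egfr UMI, and those nuclei had a median of 3 and up to 85, so that Egfr UMIs were gathered in a minority of the nuclei. The other clusters were at or below 11.6 CPM, with a median over clusters of 2.22. Egfros lies on the other strand within Egfr.

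Erbb2 (chromosome 11, 98412470 to 98437716, plus strand) was sparse and was found chiefly in RGC clusters, at 6.01 CPM ± 3.22 in Cluster 12, 5.82 ± 1.94 in Cluster 2 (RGC 1) and 5.72 ± 2.81 in Cluster 3. RGC nuclei supplied 68.7% of Erbb2 UMIs, 3.67% of those nuclei held one, and of the nuclei with Erbb2 94.0% held a single UMI. No step in its order exceeded the spread, and it overlaps Mien1 on the other strand. Erbb3 (chromosome 10, 128567523 to 128589652, minus strand), in development best known from Schwann cells and other neural crest derivatives, gave 77 UMIs in all 50550 nuclei, with none in Clusters 15, 18, 22, 24 and 25. Its highest cluster mean, 1.22 CPM in Cluster 19, rested on 2 UMIs and lay between 0.238 and 1.35 CPM when single embryos were left out, so no order of clusters is read for Erbb3. Erbb2 and Egfr levels rose together over clusters (r = 0.616, rho = 0.485, 25 clusters), and Erbb2 ran against Nrg2 (r = -0.517, rho = -0.677).

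The genes whose levels over the 25 clusters were most like those of a member were found by Pearson's r among 11621 genes. For Erbb4 they were Gm3143 (0.909), Gm29135 (0.908) and Gm38505 (0.893). Erbb2 was followed by Mfge8 (0.959) and Ajuba (0.949), and Egfr by Aldh1l1 (0.824), Gpam (0.821) and Itgb5 (0.813). For Nrg2 the nearest genes were Abcg4 (0.954), Tspoap1 (0.946) and Rab15 (0.944), and for Nrg1 Clcn7 (0.840), Gm26604 (0.83) and Nae1 (0.817). The 3 nearest to Nrg3, Nrg3os (0.996), Gm20642 (0.994) and Gm20641 (0.979), are the genes that overlap it on the other strand. The nearest genes of Nrg4 (Arhgap4 at 0.759, Disp1 at 0.712 and Mrnip at 0.674) and Erbb3 (Runx1 at 0.731, Pcgf2 at 0.692 and Cck at 0.651) rest on very few UMIs of the member.

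How often UMIs of 2 members fell in the same nucleus was set beside the product of their separate shares. After each nucleus was thinned to 2000 UMIs, 103 combinations of a pair and a cluster had both members in at least 5% of nuclei and were measured in at least 9 embryos. The ratio of the share with both members to that product had a median of 1.001 over these, and ranged from 0.828 to 1.119. In 26 of them 1 member was found in over 90% of nuclei, which holds the ratio near 1 (0.988 to 1.018), so that only the other 77, with the full range and a median of 1.001 as well, bear on the pairing. Of these 77, the share with both lay above the product in every embryo for Nrg2 with Nrg3 in Cluster 8 (10.9% against 10.1%) and in no embryo for Nrg1 with Nrg3 in the same cluster (65.5% against 67.6%). Rarer pairs varied more, such as Nrg3 with Egfr in Cluster 9 (both in 0.188% of nuclei, ratio 1.426). In Cluster 3, nuclei with both Nrg1 and Nrg3 made up 64.9%, where the product was 62.8%, with the share above the product in 10 of 11 embryos. There, 35.4% of nuclei held UMIs of both Nrg3 and Erbb4, where the product was 37.5% (above it in 1 of 11 embryos), and 4.28% held both Nrg3 and Egfr, a pair just under the 5% minimum, where the product was 4.88% (above it in 4 of 11). Without thinning, Erbb4 UMIs were found in 63.6% of all PN nuclei and those of Gad2 in 18.1%, against 79.5% and 31.1% in Cluster 3. A nucleus with a UMI is therefore not counted as one that expresses the gene, and the part of stray UMIs in these shares was not tested.

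EtOH was then compared with saline by edgeR's quasi-likelihood test on counts summed per embryo, fitted over all genes in each cluster, with Benjamini-Hochberg adjustment over those genes. A gene was called where the adjusted p lay under 0.05 and it rose by over 25% or fell by over 20%. Of the 200 combinations of a member and a cluster, 104 had enough counts to be tested, and 2 were called, both Erbb4 falling in PN clusters, while 24 (23.1%) had an unadjusted p under 0.05. Of all genes tested in the 25 clusters 0.792% were called, 0.35% were called lower in EtOH, and 17.4% had an unadjusted p under 0.05. With the same threshold, DESeq2 called 9 of the 104 and 2.6% of all tests, and limma voom with dams as random effects called 9 of 100 and 3.05% of all tests. In the 5 major cell types, 3 of 29 tested combinations were called (of all genes, 3.75%): Erbb4 fell in PN, Nrg2 fell in RGC and Egfr rose in IPC. Over all nuclei of an embryo, edgeR called 0 of 7 tested members (of all genes, 12.1%), 0 had an unadjusted p under 0.05, and DESeq2 also called 0. Each of the 5 calls was lost with batch as a term in the model. Leaving out saline embryo S2-4 raised the share of all genes called to 8.78% in the clusters and 16.9% in the major cell types. Values without S2-4 given below stand beside these shares.

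Erbb4 in Cluster 1 (callosal PN) had 525.5, 364.8, 537.6, 292.0 and 159.1 CPM in saline embryos S1-1, S1-2, S2-1, S2-2 and S2-4, and a lowest, median and highest level of 60.1, 99.4 and 168.5 CPM in the 6 EtOH embryos. The lowest saline embryo, S2-4, lay within the EtOH range, and the other 4 lay above it. S2-4 was also the saline embryo whose median depth, 6325 UMIs per nucleus, lay within that of EtOH embryos (4072 to 6911). The part of this depth in the values of S2-4, here and below, was not tested. The log2 fold change was -1.82 (SE 0.379, edgeR adjusted p = 0.0397), with -1.91 in batch 1 and -1.62 in batch 2, and 1.69% of all genes were called lower in this cluster. With the batch term the adjusted p was 0.0529, and over the alternatives it ranged from 0.000408 to 0.108. It passed 0.05 when S2-4 was left out (log2 fold change -2.02, adjusted p = 0.00216), and it missed when any one of the other 10 embryos was left out (-1.98 to -1.65).

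In Cluster 9 (early PN), the saline embryos had 565.2, 445.3, 659.7, 395.0 and 177.3 CPM of Erbb4 in the same order, and the EtOH embryos had a lowest, median and highest level of 70.8, 105.4 and 141.6 CPM. The groups did not overlap, and S2-4 was again the saline embryo nearest to the EtOH range. The log2 fold change was -2.04 (SE 0.347, edgeR adjusted p = 0.0376), with -2.27 in batch 1 and -1.87 in batch 2, and 0.799% of all genes were called lower in this cluster. Its adjusted p was 0.0599 with the batch term and ranged from 2.12e-06 to 0.094 over the alternatives, and without S2-4 it was 0.000108 (-2.25), while leaving out any other single embryo lost the call (-2.14 to -1.88).

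Over all PN nuclei, Erbb4 stood at 559.3, 436.4, 554.1, 328.5 and 208.8 CPM in the saline embryos, and at a lowest, median and highest level of 94.0, 185.7 and 265.2 CPM in the EtOH embryos. Here S2-4 lay inside the EtOH range. On the log2 scale the fold change was -1.26 (SE 0.344, edgeR adjusted p = 0.0460), with -1.59 in batch 1 and -0.94 in batch 2, and 2.36% of all genes were called lower in PN. With the batch term the adjusted p was 0.0635, the alternatives ranged from 0.00502 to 0.16, and of the embryos left out singly only the omission of S2-4 kept the call (-1.44, adjusted p = 0.0106, against -1.42 to -1.11 for the others). Lower values of the same size that did not pass were -1.43 in IPC (adjusted p = 0.0706), -1.70 in Cluster 6 (0.0959) and -1.05 in Cluster 2 (0.0829). Over the 25 clusters the Erbb4 fold change was below 0 in 21, with a median of -0.52, where the median over all genes tested was 0.0057.

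**Figure D3:**
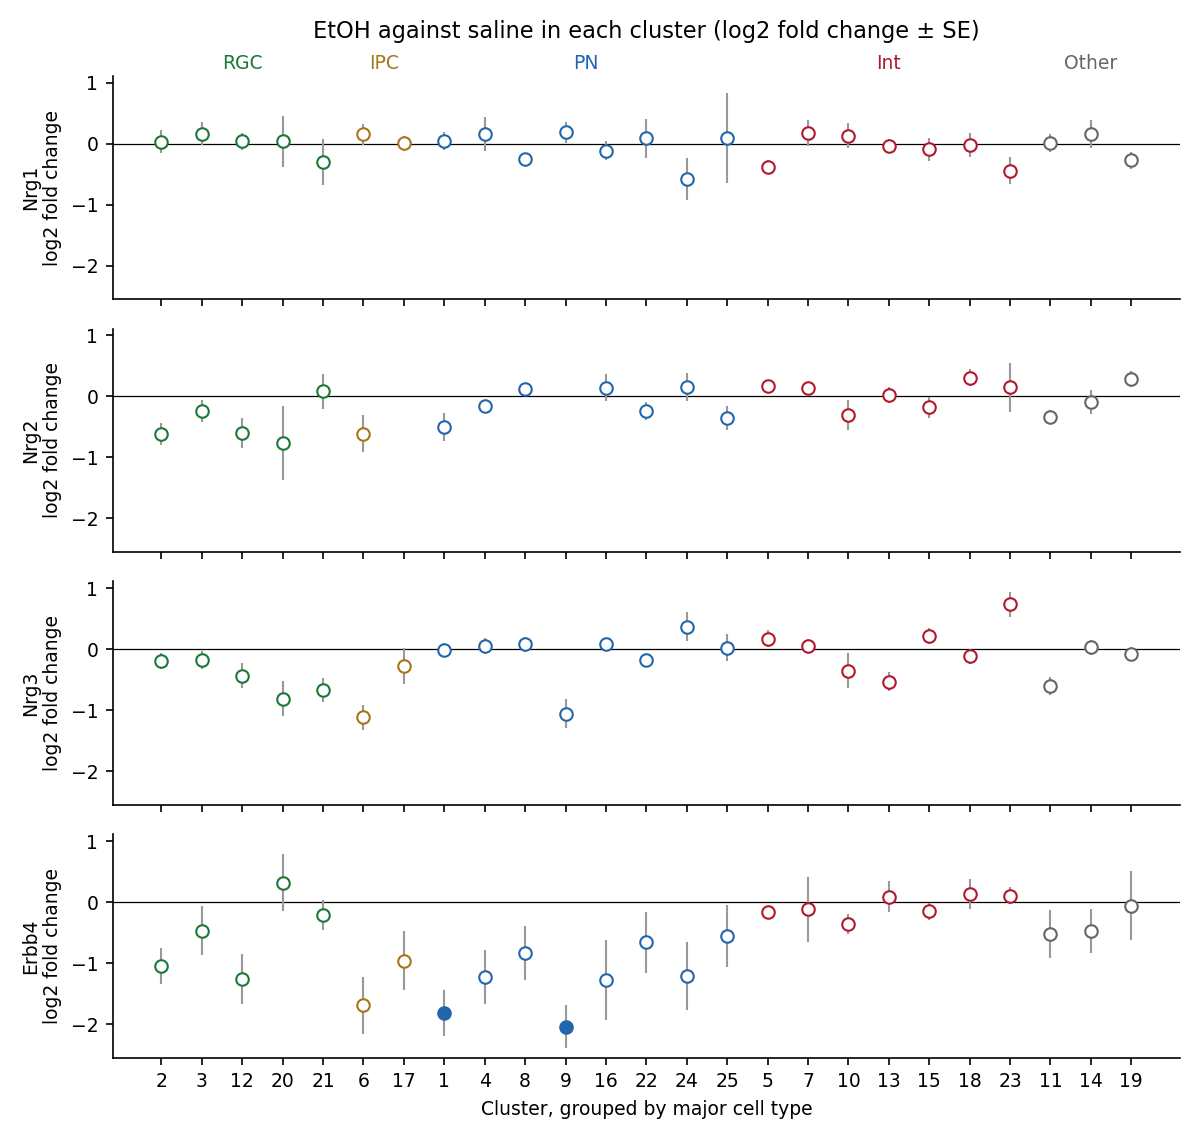
Log2 fold change of EtOH against saline (points, with bars of ± 1 SE from edgeR) for Nrg1, Nrg2, Nrg3 and Erbb4 in each cluster, with filled points where the change was called. The filled points are Erbb4 in Clusters 1 (-1.82) and 9 (-2.04), and Erbb4 in Clusters 5 and 23 lies close to 0.

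In the clusters that hold most of its UMIs, Erbb4 did not pass the test. Cluster 5 had 25633, 25749, 24468, 22344 and 21578 CPM in saline embryos and a lowest, median and highest level of 20490, 21484 and 25221 CPM in EtOH embryos, which overlapped widely (log2 fold change -0.16, SE 0.097, adjusted p = 0.344). Cluster 23 had a mean of 21487 CPM ± 4296 (n = 5) in saline and 22970 ± 1305 (n = 5) in EtOH, with a log2 fold change of 0.10 (SE 0.139, adjusted p = 0.846). For all Int nuclei the log2 fold change was -0.03 (SE 0.164, adjusted p = 0.928). The difference of the EtOH effect between PN and Int was -1.27 on the log2(CPM + 1) scale, with an exact permutation p of 0.0195 and an adjusted p of 0.125 over 24 such tests, so the difference between the cell types did not pass.

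**Figure D4:**
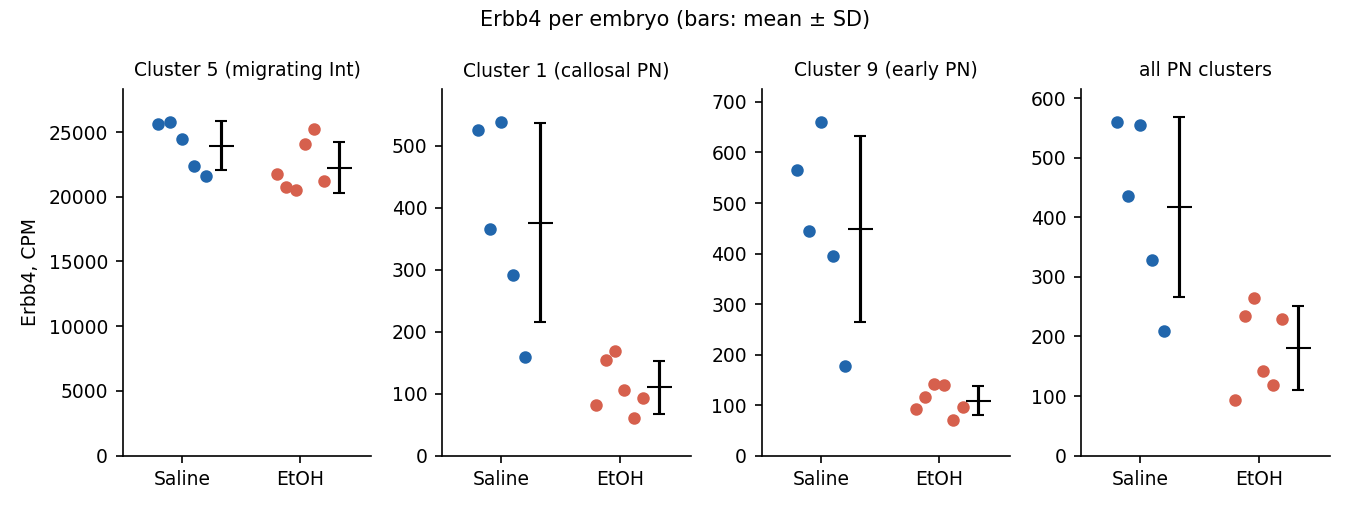
Erbb4 level (CPM, axes from 0) in each saline and EtOH embryo (points) with the mean ± SD beside them, in Cluster 5, Cluster 1, Cluster 9 and all PN clusters together. The groups overlap in Cluster 5, S2-4 at 159.1 CPM lies within the EtOH range in Cluster 1, and the groups are apart in Cluster 9.

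Interneuron and Cajal-Retzius markers, among other lists, were lower in EtOH in PN nuclei, as Erbb4 was. All 6 interneuron markers were above 0 there, and their summed level was 133.9 CPM (64.7 to 198.2 over embryos) in saline and 75.1 (49.8 to 108.9) in EtOH in Cluster 1. In Cluster 9 it was 152.5 (82.3 to 236.4) and 57.8 (15.7 to 120.1), and in all PN 152.3 (104.5 to 225.2) and 85.2 (59.1 to 115.3). S2-4 had the lowest saline value of the markers in Clusters 1 and 9, as it had of Erbb4. In PN, edgeR called Dlx1 (log2 fold change -0.60, adjusted p = 0.0352) and Dlx6os1 (-1.02, adjusted p = 0.0411) lower, whereas in Clusters 1 and 9 none of the 4 and 3 markers tested was called. Relative to Cluster 5 of the same embryo, Erbb4 in Cluster 1 stood at 1.54% in saline and 0.510% in EtOH, and the markers at 3.71% and 2.31%. In Cluster 9 these were 1.84% and 0.497% for Erbb4, and 4.20% and 1.78% for the markers. The Erbb4 level per marker CPM was 2.78 in saline and 1.53 in EtOH in Cluster 1, 2.90 and 2.45 in Cluster 9, and 6.70 and 6.77 in Cluster 5. The 4 Cajal-Retzius markers (Reln, Trp73, Lhx5 and Ebf3), all above 0, summed to 299.8 CPM in saline (169.7 to 438.3) and 178.3 in EtOH (93.99 to 212.2) in Cluster 1, to 312.2 (238.1 to 424.4) and 175.5 (145.4 to 217.4) in Cluster 9, and to 283.2 (164.2 to 400.1) and 185.6 (134.8 to 235.8) in PN. Their own Cluster 14 held 1551 CPM of Erbb4. Other lists fell as well: in PN, the 4 IPC markers went from 43.7 to 33.55 CPM, the 4 striatal markers from 526.6 to 474.2 and the 4 thalamic markers from 267.5 to 207.5. In Cluster 9 these lists went from 132.1 to 104.9, from 616.2 to 461 and from 645.6 to 557.5 CPM. The 4 microglia markers (P2ry12, Csf1r, Cx3cr1 and Ly86) went the other way, from 13.8 CPM (8.91 to 21.2) to 23.2 (18.4 to 27.4) in PN. The 6 RGC markers stood there at 99.7 and 100.8 CPM, and the 6 PN markers at 2304 and 2352. Which part of the change in Erbb4 goes with any of these markers was not tested.

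**Figure D5:**
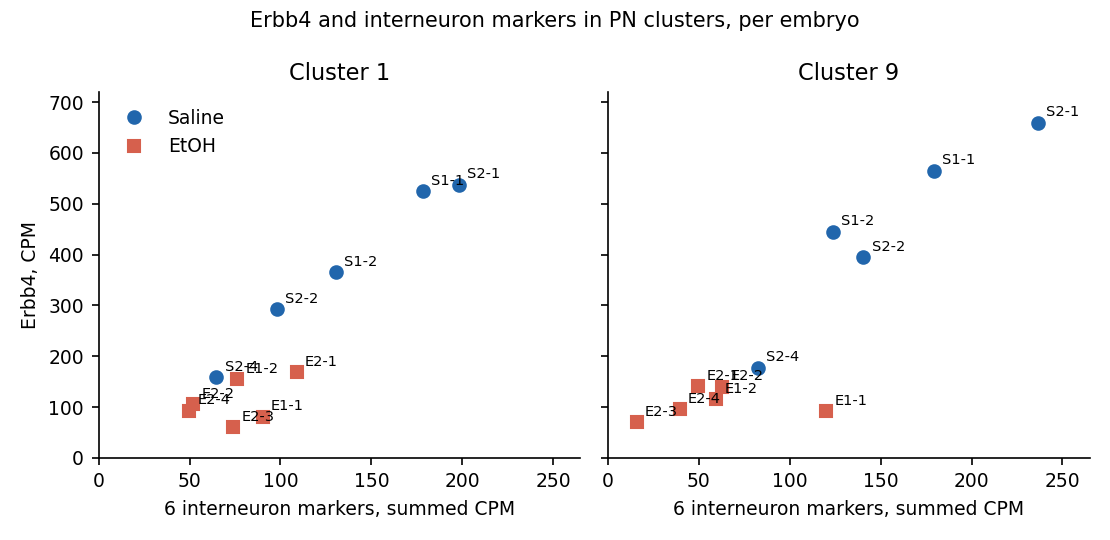
Erbb4 level (y axis, CPM) against the summed level of 6 interneuron markers (x axis, CPM) in each embryo, in Cluster 1 (left) and Cluster 9 (right), saline as circles and EtOH as squares. In both clusters the saline embryos with the most Erbb4 (S1-1 and S2-1) also have the most marker counts, and S2-4 lies beside the EtOH embryos.

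Per nucleus, Erbb4 in PN was mostly a matter of few UMIs, and the share of nuclei with one differed between the groups. Without thinning, 86.4% ± 19.7 (n = 5) of saline and 37.5% ± 11.5 (n = 6) of EtOH PN nuclei held an Erbb4 UMI, at median depths of 8609 and 6671 UMIs per nucleus, and of all PN nuclei with Erbb4 31.9% held exactly 1. In the same nuclei, Gad2, an enzyme that makes GABA in interneurons, was found in 27.9% ± 12.2 of saline and 7.53% ± 2.39 of EtOH nuclei, and Dlx6os1 in 36.4% ± 14.9 and 8.70% ± 3.02. Cluster 1 alone gave 86.0% and 35.5% for Erbb4 and 26.4% and 6.20% for Gad2. In Cluster 5 the shares were 100% in both groups for Erbb4 and 98.0% and 96.8% for Gad2. Thus both interneuron genes were found in a smaller share of EtOH than of saline PN nuclei, as Erbb4 was, and the part of the interneuron genes or of depth in this was not tested.

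The shares of nuclei with a UMI were compared after thinning every nucleus to 2000 UMIs, with 387 shallower nuclei left out (210 of EtOH and 177 of saline embryos), by exact permutation over the 462 splits of the embryos. Of 40 combinations of a member and a major cell type, 12 had an adjusted p under 0.05, all lower in EtOH. At an unadjusted p under 0.05 there were 17, all lower, where the same test over all genes gave 11.5% of combinations, and 4.93% lower. Among genes with a mean share of at least 10%, 14.3% of all combinations and 13 of the 17 of members were lower, the members being Nrg1, Nrg3 and Erbb4 in cell types of the same embryos. Erbb4 was found in 48.0% ± 16.9 (n = 5) of saline and 14.5% ± 4.44 (n = 6) of EtOH PN nuclei (exact permutation, adjusted p = 0.0192), and in 53.7% and 17.5% of IPC nuclei (exact permutation, adjusted p = 0.0192). In RGC it was found in 61.4% and 30.0% (exact permutation, adjusted p = 0.0236, and 0.0635 within batches), and in the other clusters in 55.0% and 27.7% (exact permutation, adjusted p = 0.0124). Beside these, the 6 interneuron markers summed in IPC to 217.7 CPM in saline (169.6 to 342 over embryos) and 152.7 in EtOH (80.1 to 291.3), and in RGC to 372.9 (211.8 to 494.4) and 269.6 (178.3 to 317.7). In IPC, Gad2 (log2 fold change -0.56), Gad1 (-0.81) and Dlx6os1 (-0.76) were lower and Dlx1 (0.17) and Dlx2 (0.56) higher, none called by edgeR. The 4 Cajal-Retzius markers summed to 267.8 CPM in saline and 173 in EtOH in IPC, and to 126.3 and 65.4 in RGC. Microglia markers went the other way, from 15.6 to 27.5 in IPC and from 24.6 to 45.0 in RGC. The part of these markers in the result was not tested. In Int the shares were 80.8% and 68.2% (exact permutation, adjusted p = 0.0124), while the CPM there stood at 8669 and 8926, so no direction is read from this share.

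After thinning, Nrg3 was found in a smaller share of EtOH than of saline nuclei of RGC (76.3% and 59.4%), IPC (63.1% and 34.6%) and the other clusters (82.9% and 68.5%), with adjusted p of 0.0124, 0.0124 and 0.0236 by exact permutation. The Nrg3 CPM was 1442 and 1277 in RGC, 707 and 470 in IPC and 3493 and 3147 in the other clusters, and edgeR called none of these 3 (adjusted p = 0.157, 0.117 and 0.271). In PN and Int the Nrg3 shares were 86.6% and 80.0% and 79.6% and 66.9% (exact permutation, adjusted p = 0.0618 and 0.0533), while the CPM stood at 4588 and 4979 and at 2923 and 3138, so no direction is read from the Nrg3 shares. For Nrg1 the shares were 86.9% and 80.0% in PN, 83.9% and 66.7% in Int and 89.6% and 81.7% in the other clusters (exact permutation, adjusted p = 0.0124 for each). As the CPM of Nrg1 was flat in these nuclei (3869 and 3886 in PN, 2381 and 2357 in Int), none is read from its shares either. The number of genes found per thinned nucleus was 1130 in saline and 1122 in EtOH PN (exact permutation p = 0.40), and 1165 and 1161 in Int (exact permutation p = 0.647).

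Levels of Nrg3 were lower in EtOH in Clusters 6 and 9, where it was lowest, without passing the test. In Cluster 17, also low in Nrg3, the means were closer, at 1020 CPM in saline and 876 in EtOH. In Cluster 6 (non-mitotic IPC), Nrg3 had 697.9, 586.1, 720.8, 506.9 and 317.1 CPM in saline embryos and a lowest, median and highest level of 238.4, 260.9 and 320.3 CPM in EtOH embryos. All saline embryos but S2-4 lay above every EtOH embryo. The log2 fold change was -1.12 (SE 0.206, edgeR adjusted p = 0.0596), and without S2-4 it was -1.28 (adjusted p = 1.46e-06), which would be a call, within a range of adjusted p up to 0.165 over the alternatives. With all embryos edgeR called 1 of 10785 genes in Cluster 6. Without S2-4 the share of all genes called over the 25 clusters rose from 0.792% to 8.78%, so this value is not particular to Nrg3. In Cluster 9 the log2 fold change was -1.05 (SE 0.241, adjusted p = 0.0665), from 546.8 CPM ± 177.3 (n = 5) to 270.1 ± 39.3 (n = 6). As a share of the Nrg3 level of Cluster 4 in the same embryos, these clusters stood at 7.53% and 7.29% in saline and at 3.33% and 3.27% in EtOH. The 6 interneuron markers in these clusters summed in Cluster 6 to 195.4 CPM in saline (119.6 to 343.3 over embryos) and 115.3 in EtOH (77.4 to 183.2), and in Cluster 9 to 152.5 (82.3 to 236.4) and 57.8 (15.7 to 120.1). The 4 Cajal-Retzius markers, whose Cluster 14 held 5190 CPM of Nrg3, summed in Cluster 6 to 330.6 CPM in saline (204.5 to 497.9) and 214.9 in EtOH (153.9 to 261.1), and in Cluster 9 to 312.2 and 175.5. The part of either list in the result was not tested. In Cluster 4 itself, where Nrg3 was near its highest, the log2 fold change was 0.06 (SE 0.129, adjusted p = 0.836).

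In Cluster 23 (migrating Int), Nrg3 had a fold change of the opposite sign, with 1990, 1550, 1075, 809 and 1397 CPM in saline embryos and 2278, 2760, 2180, 2027 and 2162 CPM in the 5 EtOH embryos with enough nuclei. The groups did not overlap, but the log2 fold change of 0.73 (SE 0.212) had an adjusted p of 0.185 in this small cluster. The 4 Cajal-Retzius markers summed there to 442.2 CPM in saline and 672.3 in EtOH, and the 4 microglia markers to 6.84 and 21.1. The 6 PN markers went the other way, from 854.2 to 674.9 CPM, and the part of these lists in the result was not tested. Over 25 clusters, Nrg3 was below 0 in 15 and above 0 in 10, with 0 called by edgeR and 7 at an unadjusted p under 0.05. DESeq2 called 3 of these (Clusters 6, 9 and 11), all lower, and limma voom called the same 3 and Cluster 13, with the shares of all genes these tools called as given above. EtOH embryo E1-1, with 6 nuclei in Cluster 23, was left out of that fit.

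Nrg1 showed no call in any of its 25 clusters by edgeR, with 2 at an unadjusted p under 0.05 and fold changes on the log2 scale from -0.58 (Cluster 24) to 0.19 (Cluster 9). Its smallest adjusted p was that of Cluster 5 (log2 fold change -0.38, SE 0.111, adjusted p = 0.0710), which DESeq2 and limma voom called and where saline embryos ranged from 1999 to 2304 CPM and EtOH embryos from 1275 to 2128. In Cluster 9, where it was highest, the mean was 11816 CPM ± 3279 in saline and 13758 ± 455 in EtOH (0.19, SE 0.172, adjusted p = 0.606). The smaller SD of the EtOH embryos in Cluster 9 goes with a saline range of 7742 to 15326 CPM.

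Nrg2 in RGC stood at 25.6, 25.4, 30.9, 37.4 and 20.5 CPM in the saline embryos and at a lowest, median and highest level of 16.2, 20.1 and 23.3 CPM in EtOH embryos. Again S2-4 alone among saline embryos lay inside the EtOH range. This gave a log2 fold change of -0.55 (SE 0.148, edgeR adjusted p = 0.0489), with -0.44 in batch 1 and -0.49 in batch 2, and 1.48% of all genes were called lower in RGC. With the batch term the adjusted p was 0.0545, the alternatives ranged from 0.00122 to 0.135, and only the omission of S2-4 kept the call among embryos left out singly (-0.66, adjusted p = 0.00122, against -0.61 to -0.44). Beside it, the 6 PN markers in RGC summed to 412 CPM in saline and 366 in EtOH and the 6 interneuron markers to 373 and 270. The 4 Cajal-Retzius markers summed there to 126.3 CPM in saline (76.4 to 178.7) and 65.4 in EtOH (36.4 to 90.99), the 4 microglia markers to 24.6 (14.4 to 40.5) and 45.0 (38.3 to 48.2), and the 6 RGC markers to 927 (761.2 to 1011) and 1125 (985.4 to 1220). The part of these markers in the result was not tested. The RGC clusters differ in Nrg2, and Cluster 21, which has the most, made up 6.14% of saline RGC nuclei (2.65% to 14.9%) and 4.57% of EtOH RGC nuclei (0.459% to 7.73%). With Clusters 20 and 21 left out, a choice made after seeing the data, Nrg2 stood at 21.9 CPM in saline (16.6 to 27.3) and 15.96 in EtOH (14.6 to 20.2), with a log2 fold change of -0.53 (SE 0.140, edgeR adjusted p = 0.0429). Of the single RGC clusters, Cluster 2 gave -0.62 (adjusted p = 0.0707, called by DESeq2) and Cluster 12 -0.60 (adjusted p = 0.198), whereas Cluster 3, with 34.4% of saline and 31.8% of EtOH RGC nuclei, gave -0.24 (adjusted p = 0.455), from 21.1 CPM to 18.6 with overlapping groups. Cluster 20 gave -0.76 (adjusted p = 0.740) and Cluster 21 0.08 (adjusted p = 0.959). The difference of the Nrg2 effect between RGC and Int, -0.56 on the log2(CPM + 1) scale, had the smallest adjusted p of the 24 tests of differences between cell types (exact permutation, adjusted p = 0.0519), and 0 of the 24 passed. The same test was not run over all genes.

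Egfr in IPC had 3.38, 3.45, 5.71, 5.06 and 3.68 CPM in saline embryos and a lowest, median and highest level of 5.12, 10.8 and 18.9 CPM in EtOH embryos. A single EtOH embryo, E2-4, fell within the saline range. The log2 fold change was 1.31 (SE 0.287, edgeR adjusted p = 0.0470), with 1.14 in batch 1 and 1.16 in batch 2, and 0.883% of all genes were called higher in IPC. Each library gave between 10 and 32 UMIs of Egfr in these nuclei. The share of IPC nuclei with an Egfr UMI did not pass. It was 2.43% in saline and 2.56% in EtOH without thinning (exact permutation, adjusted p = 0.861), and 0.713% and 1.22% after thinning (exact permutation, adjusted p = 0.332). With the batch term the adjusted p was 0.0541, the alternatives ranged from 0.00325 to 0.131, and leaving out S2-4 kept the call (adjusted p = 0.00653) while leaving out any other embryo lost it (1.09 to 1.47). The 6 RGC markers in IPC summed to 287.5 CPM in saline (245.1 to 327.2) and 354.5 in EtOH (306.2 to 396.9), and the 4 microglia markers to 15.6 (10.0 to 26.9) and 27.5 (22.4 to 32.4). The part of both lists in the result was not tested.

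In Cluster 3, which holds most of the Egfr UMIs, the batches differed in direction. Saline embryos had 104.7, 106.8, 22.3, 15.2 and 91.3 CPM of Egfr (S1-1, S1-2, S2-1, S2-2 and S2-4), and EtOH embryos 22.9, 109.4, 127.2, 111.5, 98.3 and 123.3 CPM (E1-1, E1-2 and E2-1 to E2-4). Low values thus occurred in 2 saline embryos of batch 2 and 1 EtOH embryo of batch 1, and the groups overlapped. The log2 fold change was 0.50 (SE 0.540, adjusted p = 0.636), being -0.67 within batch 1 and 1.40 within batch 2. Cluster 12 (non-mitotic RGC) had too few Egfr counts for the test, with 3.19 CPM ± 1.76 in saline and 16.5 ± 21.04 in EtOH, where the EtOH embryos of batch 1 had 0 UMIs and E2-2 alone had 54.9 CPM. Cluster 7 (Int 1) had 4.06 ± 3.48 and 4.55 ± 3.51 CPM and was also not tested. In Cluster 17 (mitotic IPC) the levels were 4.01 ± 2.25 and 13.6 ± 8.51, and Cluster 6 had 4.29 ± 1.95 and 9.25 ± 4.58 (adjusted p = 0.125). In PN, Egfr had a log2 fold change of -0.86 (adjusted p = 0.0753) and was found in 0.437% of saline and 0.1798% of EtOH thinned nuclei (exact permutation, adjusted p = 0.0361, and 0.0635 within batches).

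The remaining members had few tests. Erbb2 was tested in Cluster 2, with a log2 fold change of 0.30 (SE 0.246, adjusted p = 0.485), and in RGC with 0.29 (SE 0.161, adjusted p = 0.236). Nrg4 was tested in no single cluster, and in RGC it had 1.54 CPM ± 0.328 in saline and 2.61 ± 0.789 in EtOH (0.66, SE 0.245, adjusted p = 0.0923). Erbb3 had too few counts to be tested in any cluster, cell type or whole embryo.

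The wider pathway was taken as 58 genes of EGF family ligands, ligand processing, adaptors, downstream signalling and negative regulation, of which 57 were in the tables and 51 could be tested in at least 1 cluster. Over 1118 tests 15 were called (1.34%, where the share of all genes was 0.792%), 14 of them lower in EtOH and 1 higher, from 8 genes, and the median log2 fold change was -0.07. None of the 25 tests of ligands or of the 96 tests of processing genes such as Adam10 was called. Downstream signalling gave 9 calls in 434 tests. Pik3r3, a regulatory subunit of PI3-kinase, fell in Clusters 7 (log2 fold change -1.02) and 8 (-0.80), and Map2k2, which phosphorylates ERK, rose in Cluster 13 from 45.0 to 76.3 CPM (0.72, adjusted p = 0.0153).

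Adaptors gave 3 calls in 326 tests: Dlg1, a scaffold of membrane receptors, fell in Clusters 5 (-0.38, adjusted p = 0.0122) and 3 (-0.34), and Erbin, which binds ErbB2, fell in Cluster 4 (-0.47). Negative regulators gave 3 calls in 237 tests, which were Nedd4, a ubiquitin ligase, in Clusters 8 (-0.37) and 9 (-0.39), and Lrig1, a membrane protein that promotes the loss of ErbB receptors, in Cluster 1, where it fell from 10.0 to 5.08 CPM (-1.01, adjusted p = 0.0396). In Cluster 1 the receptor Erbb4 and the regulator Lrig1 were both called lower, and in Cluster 9 Erbb4 and Nedd4, each in a separate test. Lrig1 was scarce in Cluster 1, as its level was 130.9 CPM in Cluster 20, its highest, with a median over clusters of 18.6. Whether these changes are linked was not tested. The groups overlapped for Lrig1 (saline from 6.47 CPM, EtOH up to 6.55) and for Nedd4 in Cluster 9 (saline from 327.1, EtOH up to 336.1). How these calls of Lrig1 and Nedd4 fared under the alternatives is not reported here. The number of pathway calls moved with that over all genes: it was 81 (7.21% of tests) without S2-4, where 8.78% of all genes were called, 1 to 7 when another embryo was left out, where 0.0408% to 0.352% were, and 5 with the batch term, where 0.419% were.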

How the data were processed

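Droplet-based snRNAseq (10x Genomics 3' chemistry) was performed by the authors on nuclei of 12 embryos in the labels, and the authors deposited raw UMI counts of 23513 genes as 1 table per embryo and cluster, here for 11 embryos. According to the methods, reads were aligned to mm10 with Cell Ranger at default settings (version not given in the sources used here), nuclei were filtered and clustered with Seurat, and low-transcript, thalamic and non-neuronal clusters were removed. Whether intronic reads were counted, and on which strand, is not stated. A sixth saline embryo of the labels, S2-3, is not analysed here.

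Counts were summed per embryo and cluster (or major cell type) over embryos with at least 10 nuclei, which left out 9 of 275 pairs. EtOH and saline were compared with edgeR 4.0.16 in R 4.3.3 (TMM, filterByExpr, robust glmQLFit, glmQLFTest, no covariate), 1 fit over all genes per cluster. DESeq2 1.42.0, limma 3.58.1 (voom, dams as random effects), a batch term, counts summed per dam, thinning and each embryo left out in turn were alternatives. Shares were compared by two-sided exact permutation of group means (smallest possible p 0.00216), adjusted over 40 tests. Differences between cell types used log2(CPM + 1), adjusted over 24. Python 3.11.15, NumPy 2.4.6, SciPy 1.17.1, pandas 2.3.3 and matplotlib 3.10.9 were used. Gene positions are from GENCODE on GRCm38, and the position of Nrg2 is not reported here. On simulated counts, edgeR recovered 91.9% of genes changed by 1 log2 unit in Cluster 3 (10962 genes) and 94.9% in PN, but 23.5% in Cluster 25 (5331 genes). The simulation gave all genes a common dispersion and had no differences between dams or batches. These shares therefore do not say how often a change of that size was called in the real embryos.

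The embryo numbers do not pair saline with EtOH embryos, so batch, given by the dams, was the only block. Embryos of a dam differed by 4.33 to 89.7 in chi-square per gene, above the value repeated draws of 1 library give, so none was counted as a duplicate. The pairs of saline dam S2 gave 48.75, 61.9 and 89.7, and the pairs of the other dams 4.33 to 12.3. Doublets were not called. The text names all members, every pathway gene called in a cluster, and the 3 genes most like each member among those with at least 10 CPM in a cluster. Some genes that this rule selects are not reported here. Members, gene lists and tests were chosen with earlier results of these data known.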

Additional observations from a re-analysis of the deposited data

Results flagged for a closer look

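In 96 groups of embryos (8 members in 5 major cell types and all nuclei, saline and EtOH), 7 held an embryo whose gap to its nearest neighbour exceeded Dixon's 95% critical value, where chance gives about 1 in 20. EtOH embryo E2-1 was high in PN for both Nrg2 (67.8 CPM, next 61.7) and Nrg3 (5682 CPM, next 4927). Saline embryo S2-4 was low for Nrg3 in Int (2303 CPM, next 2986), and S2-1 was high for Erbb4 in RGC (1939 CPM, next 1118). The other 3 rest on few UMIs: Erbb2 in PN of saline S2-2 (1.20 CPM, next 0.540), Erbb3 in IPC of saline S2-1 (0.571 CPM, the others 0) and Erbb3 over all nuclei of EtOH E2-4 (0.0701 CPM, next 0.172).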

How the results depend on the processing

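The members called in the 25 clusters numbered 2, and 9 with DESeq2, 1 with library size alone, 16 without a filter on low counts, 7 with counts summed per dam, 9 with limma voom and the dam as a random block, and 0 to 13 with an embryo left out (13 without S2-4). Of all genes tested there, 0.792% were called, and 2.6%, 0.377%, 2.07%, 0.721%, 3.05% and 0.0408% to 8.78% (without S2-4) under the same alternatives. The members called remained within 1.5 times with at least 20 nuclei, thinning or the adjusted p alone. With batch as a replicate block, 0 were called in the clusters (0.419% of all genes) and 0 in the 5 cell types (2.3%). The 3 calls in the cell types (3.75% of all genes) became 5 with DESeq2 (8.0%), 0 with library size alone (1.23%), 1 with thinning (1.15%) and 0 to 8 with an embryo left out (8 without S2-4, where 16.9% of all genes were called). Over all nuclei 0 became 1 (Erbb4) without S2-2, and leaving out embryos gave 0 to 1. The 15 pathway calls became 29 with DESeq2, 3 with library size alone, 66 without a filter, 5 with the batch block, 6 per dam, 3 with thinning and 1 to 81 with an embryo left out (81 without S2-4). Shares below 0.05 numbered 12, and 7 to 17 with an embryo left out, 10 within batches, 18 without thinning and 8 at 1000 UMIs. The difference between cell types gave 0 under each alternative. The same cluster was highest for 5 of 8 members with TMM factors (Nrg3 moved to Cluster 4, Nrg4 to 7 and Erbb2 to 2). Of 24 most similar genes, 8 were kept by Spearman's rho and 8 with saline embryos alone. Erbb4 in Cluster 23 changed sign without a filter (-0.029), per dam (-0.048) and without S2-2 (-0.0028, with 0.186 without S1-1 as the other end of that range). The causes were not tested. Low counts limit Nrg4, Erbb2 and Erbb3 most.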
